A study of Mus musculus with 12 samples.

Results

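The nuclear genes of the mitochondrial respiratory chain were examined in RNA of the mouse cortex and hippocampus. They were taken by symbol from the gene list of the files, as *Nduf* genes of the A, B, C, S and V series, *Sdha* to *Sdhd*, *Uqcr* genes, *Cox4* to *Cox8* genes with a letter, and *Atp5* genes. This gave 84 of 23183 gene symbols, with 37 for complex I, 4 for complex II, 8 for complex III, 18 for complex IV and 17 for complex V. All but *Atp5s* and *Atp5sl*, which RefSeq lists as the assembly-related genes *Dmac2l* and *Dmac2*, are named as subunits, and other assembly factors were not taken in. *Ndufa4* and *Ndufa4l2* were counted under complex I by their names, although the *Ndufa4* protein is now known as a subunit of complex IV.

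RNA was sequenced from 3 sham-irradiated (Con) and 3 irradiated (IR) libraries of each region, 12 in all. The male C57BL/6 mice were bought at 7 weeks of age, acclimatized for 1 week, and either sham-treated or exposed once to 10 Gy over the head, and tissue was taken 3 months later. The question behind the design was which transcripts differ in the brain long after cranial irradiation. How many animals stood behind a library is not stated, so the p-values measure the spread between these libraries, which may in part be technical.

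The respiratory chain moves electrons from NADH (complex I) and succinate (complex II) through complex III and cytochrome c to oxygen at complex IV, and complexes I, III and IV pump protons across the inner mitochondrial membrane. Complex V, the ATP synthase, uses that gradient to make ATP, on which ion pumping and synaptic transmission in neurons depend. Most subunits are encoded in the nucleus and a few in mitochondrial DNA, and several subunits of complex IV come as a broadly expressed isoform and a second one that is best known from muscle, lung or testis. No mitochondrially encoded transcript was analysed here.

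The members were among the abundant transcripts of both regions. The median over the 12 libraries was above 100 FPKM (fragments mapped to a transcript, divided by its length and by the size of the library) for 51 members, between 10 and 100 FPKM for 24 and below 10 FPKM for 9. At least 10 FPKM in every library was reached by 75 members, and by 24.4% of all symbols. The 84 members summed to between 3.25% and 4.30% of all FPKM of a library. This share was 4.07% ± 0.203 in cortex Con, 4.02% ± 0.0838 in cortex IR, 3.61% ± 0.204 in hippocampus Con and 3.45% ± 0.180 in hippocampus IR (SD, n = 3). Hippocampus Con 1 and Con 2 stood apart from the other 4 hippocampus libraries for many members, and results are also given without them. Since these are bulk tissues, fewer cells of a type and less RNA per cell cannot be told apart.

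Summed by complex, the cortex means of Con and IR were close for all 5 complexes. Complex I members summed to 4478 ± 338 FPKM in cortex Con and 4442 ± 115 FPKM in cortex IR, and to 4324 ± 472 and 3904 ± 234 FPKM in hippocampus Con and IR (SD, n = 3). Within hippocampus Con the sums were 4792, 4332 and 3847 FPKM in Con 1 to 3, and the IR libraries, at 3646, 4102 and 3964 FPKM, surrounded Con 3. Complex IV members summed to 4398 ± 227 and 4423 ± 121 FPKM in the cortex, and to 3956 ± 400.5 and 3573 ± 137 FPKM in the hippocampus. Complex V members summed to 4281 ± 307 and 4191 ± 111 FPKM in the cortex, and to 3778 ± 400.0 and 3615 ± 250.1 FPKM in the hippocampus. In each of these complexes the Con and IR means differed by less than the SD of the Con group. Complex III members, at 1527 ± 138 and 1517 ± 58.5 FPKM in the cortex, were at 1280.2 ± 112 and 1254 ± 82.5 FPKM in the hippocampus. The 4 complex II members, at 357 ± 6.88 and 342 ± 5.09 FPKM in the cortex and 354 ± 11.2 and 339 ± 5.96 FPKM in the hippocampus, had the only sum that did not overlap between Con and IR in the cortex, with 350.3 to 364 FPKM against 338 to 348 FPKM.

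Among the paired isoforms of complex IV, the broadly expressed form held nearly all of the transcript in every library. *Cox4i1* took 99.5% to 99.8% of the summed FPKM of *Cox4i1* and *Cox4i2*, *Cox6a1* took 98.3% to 99.9% of its pair, *Cox6b1* 98.2% to 99.6%, and *Cox8a* at least 98.7% of *Cox8a*, *Cox8b* and *Cox8c*. *Cox7a2* and *Cox7a2l*, whose product is known to help join complexes III and IV into supercomplexes, were near each other, with 54.1% ± 0.637 and 44.3% ± 0.501 of the *Cox7a* family in cortex Con and 47.5% ± 2.25 and 50.7% ± 1.86 in hippocampus Con (SD, n = 3). The muscle form *Cox7a1* took the remaining 1.68% ± 0.145 and 1.76% ± 0.409. The 3 genes for the same mature subunit c of the ATP synthase ring were all in use, with *Atp5g3* at 51.7% ± 0.918, *Atp5g2* at 25.3% ± 0.818 and *Atp5g1* at 23.0% ± 0.429 in cortex Con. The testis form *Cox8c* was listed at 0 in all 12 libraries and *Cox7b2* at 0 to 1.00 FPKM, and these 2 members did not pass the filter (0.5 FPKM or more in 3 or more of the 6 libraries of a region), which left 82 members tested in each region.

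**Figure D1:**
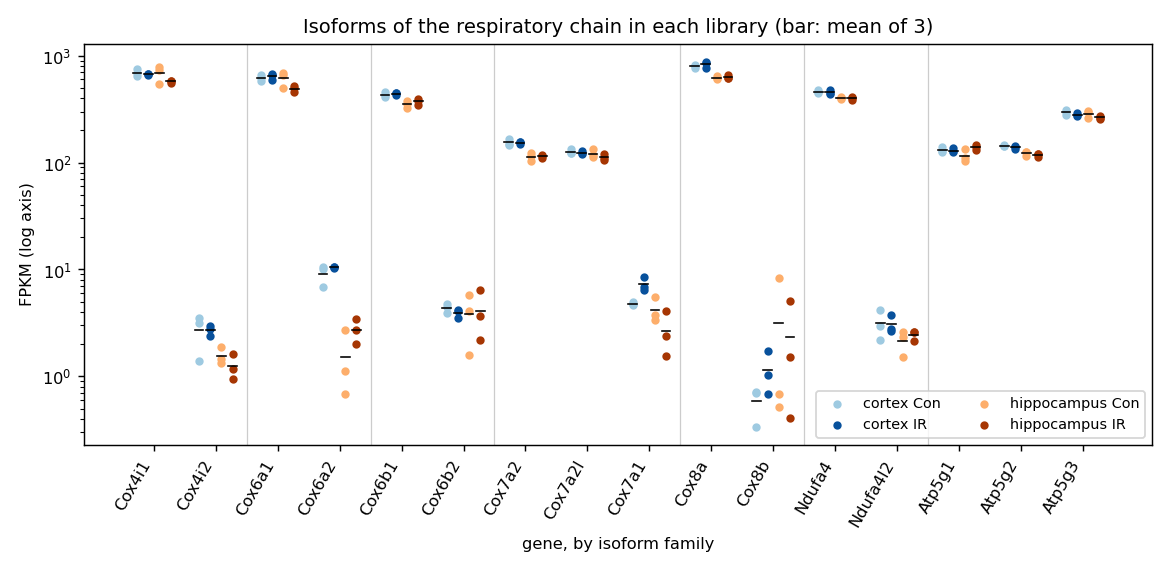
FPKM of 16 members that belong to isoform families (log axis), with 1 point per library and a bar at the mean of the 3 libraries of a group. *Cox4i1*, *Cox6a1*, *Cox6b1*, *Cox8a* and *Ndufa4* sit above 300 FPKM in every library while *Cox4i2*, *Cox6b2*, *Cox8b* and *Ndufa4l2* stay below 10, and *Cox6a2* separates cortex from hippocampus.

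Promoter windows are shown for the pairs *Cox8a* and *Cox8b* and *Cox7a2* and *Cox7a1*, each an abundant and a sparse form, and for *Cox6a1*, because the data set these isoforms apart by level. They hold the 250 bases before a transcription start that RefSeq gives on GRCm38.p6, read 5′ to 3′ along the gene. *Cox6a1* lies at chr5:115348959-115349208 (minus strand), *Cox8a* at chr19:7217617-7217866 (minus), *Cox7a2* at chr9:79759854-79760103 (minus), *Cox7a1* at chr7:30183921-30184170 (plus) and *Cox8b* at chr7:140900447-140900696 (minus). The *Cox7a2* window lies inside the RefSeq span of its gene, which reaches position 79771422, so the region before that end is not shown. Capitals mark matches, on either strand, to 3 motifs. These are GCGC, any 2 bases and GCGC again (the core bound by NRF1, a regulator of respiratory chain genes), CCGGAA (the core of ETS factors such as GABP, another such regulator) and CAGCTG (an E-box bound by muscle factors).
Cox8a: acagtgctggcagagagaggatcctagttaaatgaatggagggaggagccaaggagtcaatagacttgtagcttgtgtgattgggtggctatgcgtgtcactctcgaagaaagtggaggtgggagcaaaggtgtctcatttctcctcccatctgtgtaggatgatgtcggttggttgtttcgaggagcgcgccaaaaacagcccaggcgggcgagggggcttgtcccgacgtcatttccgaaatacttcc
Cox8b: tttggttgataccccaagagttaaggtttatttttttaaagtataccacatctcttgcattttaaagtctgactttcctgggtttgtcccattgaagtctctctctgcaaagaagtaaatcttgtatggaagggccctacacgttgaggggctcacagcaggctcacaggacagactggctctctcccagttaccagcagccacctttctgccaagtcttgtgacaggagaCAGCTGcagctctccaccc
Cox7a2: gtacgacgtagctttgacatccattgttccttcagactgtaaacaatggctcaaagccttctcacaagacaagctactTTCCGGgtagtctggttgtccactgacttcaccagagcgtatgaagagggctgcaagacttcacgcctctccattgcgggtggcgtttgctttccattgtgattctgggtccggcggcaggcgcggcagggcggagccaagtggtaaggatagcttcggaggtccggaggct
Cox7a1: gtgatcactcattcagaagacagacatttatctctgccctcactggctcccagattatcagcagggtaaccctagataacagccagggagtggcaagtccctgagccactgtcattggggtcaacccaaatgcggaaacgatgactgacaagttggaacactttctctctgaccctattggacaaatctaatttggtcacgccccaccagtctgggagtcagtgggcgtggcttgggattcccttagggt
Cox6a1: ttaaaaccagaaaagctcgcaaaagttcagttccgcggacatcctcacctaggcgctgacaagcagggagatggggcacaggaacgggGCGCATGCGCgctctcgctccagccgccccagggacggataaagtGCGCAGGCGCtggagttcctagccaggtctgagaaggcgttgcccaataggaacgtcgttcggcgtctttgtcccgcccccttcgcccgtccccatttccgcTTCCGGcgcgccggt
The *Cox6a1* window held the NRF1 core at 2 places and the ETS core once, the *Cox7a2* window held only the ETS core, the *Cox8b* window only the E-box, and the windows of *Cox8a* and *Cox7a1* held none of these letters. The GC content of the windows was 62.8% for *Cox6a1* (26 CpG), 52.8% for *Cox8a* (11 CpG), 54.8% for *Cox7a2* (14 CpG), 51.2% for *Cox7a1* (4 CpG) and 47.2% for *Cox8b* (1 CpG). RefSeq windows could be matched for 69 of the 84 members. The NRF1 core stood in the window of 14 of these 69 genes (20.3%) and of 5.64% of 27025 genes in the table, the ETS core in 21 (30.4%) and 13.6%, and the E-box in 6 (8.70%) and 14.7%. The 75 member windows had a median GC content of 56.0% and 14 CpG, against 52.4% and 6 CpG in all 32851 windows. A match describes letters in the window and was not tied to the binding of a factor.

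The regional baseline was compared first, as hippocampus against cortex in the Con libraries. The cortex markers *Tbr1*, *Lamp5* and *Rorb* were lower and the 3 granule cell markers *Prox1*, *Dsp* and *C1ql2* higher in the hippocampus, with adjusted p at or below 3.58e-05. The value columns carry other name endings in cortex than in hippocampus files, so region and a possible processing run cannot be told apart. Of 83 members tested, 58 had a lower mean in the hippocampus. With limma on log2(FPKM + 1) and Benjamini-Hochberg adjustment over 14169 genes, 22 of the 83 were lower and 1 was higher at an adjusted p under 0.05, where 17.3% of all genes tested were lower and 19% higher. The median log2 difference was -0.08 for the members and 0.02 for all genes tested. By complex, 7 of 37 were lower for complex I, 1 of 4 for complex II, 2 of 8 for complex III, 6 of 17 for complex IV and 6 of 17 for complex V, with median log2 differences of -0.06, 0.03, -0.16, -0.23 and -0.08.

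Markers of cell types also differed between the regions. Of 6 astrocyte markers, 4 were higher in hippocampus Con, among them *Gfap* (1.55), and 1, *Aldh1l1* (-0.55), was lower. They summed to 509 to 615 FPKM in cortex Con and 683 to 779 FPKM in hippocampus Con, and to 532 to 564 and 649 to 701 FPKM in IR. Of 6 neuronal markers, *Tubb3* (-0.81) and *Snap25* (-0.30) were lower and *Map2* (0.25) and *Nefl* (0.29) higher, and the sums were 2208 to 2561 FPKM in cortex Con, 2001 to 2149 FPKM in hippocampus Con, 2309 to 2562 FPKM in cortex IR and 2001 to 2121 FPKM in hippocampus IR. Of 6 oligodendrocyte markers, 0 passed in Con with limma (0 at an unadjusted p under 0.05), while 5 were lower in the hippocampus in IR, with sums of 1050.2 to 1302 FPKM and 1072 to 1308 FPKM in Con and of 1306 to 1583 FPKM and 1001 to 1265 FPKM in IR. Of 6 microglia markers, 0 passed in either comparison with limma (0 at an unadjusted p under 0.05). None of the astrocyte, neuronal, oligodendrocyte and microglia markers was at 0 in every library, and the part of these cell types in the regional differences of the members was not tested.

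The largest regional difference was that of *Cox6a2*, the isoform of subunit 6A known from heart and skeletal muscle. It was listed at 10.1, 10.5 and 6.91 FPKM in cortex Con 1 to 3 and at 1.13, 0.684 and 2.74 FPKM in hippocampus Con 1 to 3. All cortex libraries were above all hippocampus libraries (log2 difference -2.08, SE 0.30, adjusted p = 0.00157). In the IR libraries it was listed at 10.4, 10.6 and 10.5 FPKM in the cortex and at 2.02, 2.74 and 3.41 FPKM in the hippocampus, again without overlap (log2 difference -1.65, adjusted p = 7.18e-06). Its broadly expressed partner *Cox6a1* had a log2 difference of -0.01 in Con. Of 4 genes that mark parvalbumin interneurons, *Pvalb* and *Syt2* were lower in hippocampus Con, while *Kcnc1* (-0.26) and *Kcnc2* (-0.13) did not pass. The 4 genes summed to 144 to 185 FPKM in cortex Con, 158 to 194 FPKM in cortex IR, 83.9 to 95.2 FPKM in hippocampus Con and 87.0 to 92.9 FPKM in hippocampus IR, and *Pvalb* and *Syt2* had log2 differences of -1.58 and -1.51 in Con (adjusted p = 1.62e-05 and 0.000817). Their part in the *Cox6a2* difference was not tested.

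**Figure D2:**
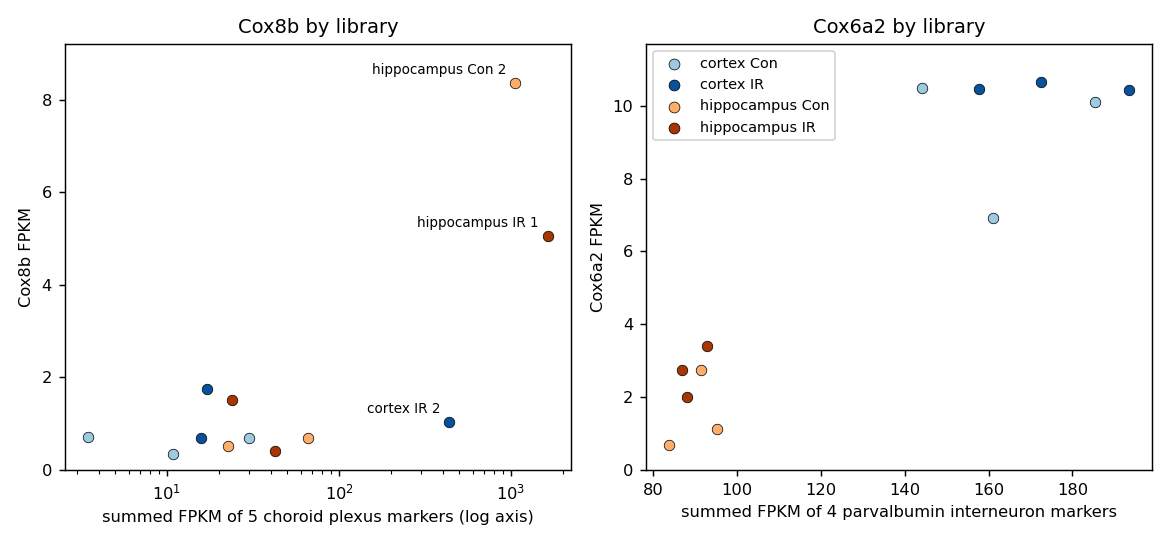
*Cox8b* FPKM against the summed FPKM of 5 choroid plexus markers (log axis, left) and *Cox6a2* FPKM against the summed FPKM of 4 parvalbumin interneuron markers (right), with 1 point per library and colours for region and group. The *Cox8b* values of hippocampus Con 2 (8.36 FPKM) and IR 1 (5.05 FPKM) stand above the others, and for *Cox6a2* the cortex libraries lie above the hippocampus libraries on both axes.

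The next largest differences among members that passed were of *Atp5k*, *Atp5e*, *Ndufa2*, *Cox7b*, *Uqcr10* and *Uqcrh*. *Cox8b*, with a log2 difference of 0.87, did not pass (adjusted p = 0.446). *Atp5k*, which encodes subunit e of the membrane part of the ATP synthase, was listed at 648, 761 and 593 FPKM in cortex Con and 492, 322 and 342 FPKM in hippocampus Con (log2 difference -0.81, SE 0.16, adjusted p = 0.00433). *Atp5e*, the epsilon subunit of its central stalk, was listed at 306, 368 and 276 FPKM against 234, 164 and 171 FPKM (log2 difference -0.74, SE 0.15, adjusted p = 0.00456). Neither gene overlapped between the regions. *Uqcrh*, the hinge protein of complex III that meets cytochrome c1, was at 269, 298 and 260.1 FPKM against 192, 193 and 179 FPKM (log2 difference -0.55, SE 0.08), and had the lowest adjusted p of the members, at 0.000888. *Uqcr10*, another small subunit of complex III, was at 246, 287 and 214 FPKM against 172, 152 and 169 FPKM (log2 difference -0.59, adjusted p = 0.00312). In both genes the lowest cortex library was above the highest hippocampus library.

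In complex IV, *Cox7b* was at 119, 124 and 109.8 FPKM in cortex Con and 87.0, 67.4 and 79.4 FPKM in hippocampus Con (log2 difference -0.59, adjusted p = 0.00171). *Cox7a2*, at 147, 168 and 150.2 FPKM against 116, 122 and 103 FPKM, differed by -0.44 (adjusted p = 0.00484). *Cox8a* (-0.36), *Cox5a* (-0.37), which lies on the matrix side, and *Cox6b1* (-0.30) were also lower at adjusted p of 0.00736, 0.00904 and 0.0272. Thus 6 of the 17 members of complex IV tested were lower in the hippocampus. In complex I the lower members were *Ndufa2* (-0.60), *Ndufa11* (-0.51), *Ndufb5* (-0.43), *Ndufb2* (-0.43), *Ndufs4* (-0.35), *Ndufs8* (-0.35) and *Ndufa6* (-0.35), with adjusted p between 0.0043 and 0.0493. Of the other members of complex V, *Atp5d* (-0.36), *Atp5l* (-0.31), *Atp5sl* (-0.25) and *Atp5g2* (-0.24) were lower.

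A list of 20 core subunits was read apart. It holds the 7 core *Nduf* genes of the peripheral arm of complex I, the 4 *Sdh* genes, *Uqcrfs1*, *Uqcrc1* and *Uqcrc2*, the nuclear complex IV subunits *Cox4i1*, *Cox5a* and *Cox5b*, and *Atp5a1*, *Atp5b* and *Atp5c1*. Of these, 14 had a lower mean in the hippocampus, beside 58 of the 83 members tested. At an adjusted p under 0.05 with limma, 3 of the 20 were lower and 1 higher, beside 17.3% and 19% of all genes tested. The lower ones were *Cox5a* and *Ndufs8*, given above, and *Sdhb*. *Ndufs7* (-0.30, adjusted p = 0.0637), *Ndufs3* (-0.16) and *Atp5c1* (-0.11) did not pass. *Ndufs1*, the largest iron-sulfur subunit of complex I, was at 46.2, 46.3 and 49.4 FPKM in cortex Con and at 63.0, 60.6 and 53.3 FPKM in hippocampus Con. It was the 1 member higher in the hippocampus (log2 difference 0.31, SE 0.08, adjusted p = 0.0174), and it no longer passed when any 1 of cortex Con 1, cortex Con 2, hippocampus Con 1 or hippocampus Con 2 was left out (adjusted p from 0.0502 to 0.0698). *Sdha*, the flavoprotein of succinate dehydrogenase, had a log2 difference of 0.18, whereas *Sdhb*, its iron-sulfur partner, was lower by a log2 difference of -0.34 (106, 109.6 and 102 FPKM against 81.8, 80.1 and 88.7 FPKM, adjusted p = 0.00687). *Atp5a1* and *Atp5b*, the alpha and beta subunits that make up the catalytic head of the ATP synthase, had log2 differences of 0.26 (adjusted p = 0.0771) and -0.04. *Uqcrc1* and *Uqcrc2*, the core proteins of complex III, were at -0.08 and 0.06, and neither passed the test.

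The same regional comparison in the IR libraries, which share no library with the Con comparison, gave 43 of 82 members lower and 4 higher at an adjusted p under 0.05, beside 23% and 23.7% of all 14173 genes tested. The median was -0.18 for the members and 0.00 for all genes. Lower members numbered 17 of 37 in complex I, 1 of 4 in complex II, 5 of 8 in complex III, 12 of 16 in complex IV and 8 of 17 in complex V, with medians of -0.17, 0.00, -0.21, -0.32 and -0.17. Both comparisons called 19 members lower, which is 86.4% of the 22 in Con and 44.2% of the 43 in IR, beside 80.9% and 61% for all genes. Of the 82 members tested in both, 63 (76.8%) had the same sign, beside 80.2% of all genes. *Ndufs1* was higher in both (log2 difference 0.16 in IR, adjusted p = 0.0119), and *Ndufa10*, *Uqcrc2* and *Atp5a1* were higher in IR (log2 differences 0.18, 0.16 and 0.15). Among the isoforms, *Cox7a1* (-1.22, adjusted p = 0.00392) and *Cox4i2* (-0.74, adjusted p = 0.000988), a form known from lung and from oxygen sensing in vessels, were lower in IR. In Con they had log2 differences of -0.17 and -0.49, which did not pass. Neither passed the interaction given further on (adjusted p = 0.291 and 0.774 from limma). Of 5 endothelial markers, 5 had a lower mean in the hippocampus in IR and 3 passed an adjusted p of 0.05 with limma. In Con, 4 of the 5 had a lower mean, 0 passed and 1 had an unadjusted p under 0.05. Of 7 mural cell markers, 1 passed as lower in IR and 1 in Con. In IR the endothelial sums were 87.7 to 99.9 FPKM in the cortex and 75.7 to 78.4 FPKM in the hippocampus, and the mural sums 68.5 to 83.3 and 67.7 to 73.0 FPKM. The endothelial sums did not overlap in Con either, at 69.8 to 84.3 FPKM in the cortex and 61.5 to 68.4 FPKM in the hippocampus. Their part in the 2 isoforms was not tested. *Ndufa5* was lower in IR (-0.35, adjusted p = 0.0110) and had a log2 difference of 0.09 in Con (adjusted p = 0.675), and the interaction given further on did not pass for it (adjusted p = 0.454).

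**Figure D3:**
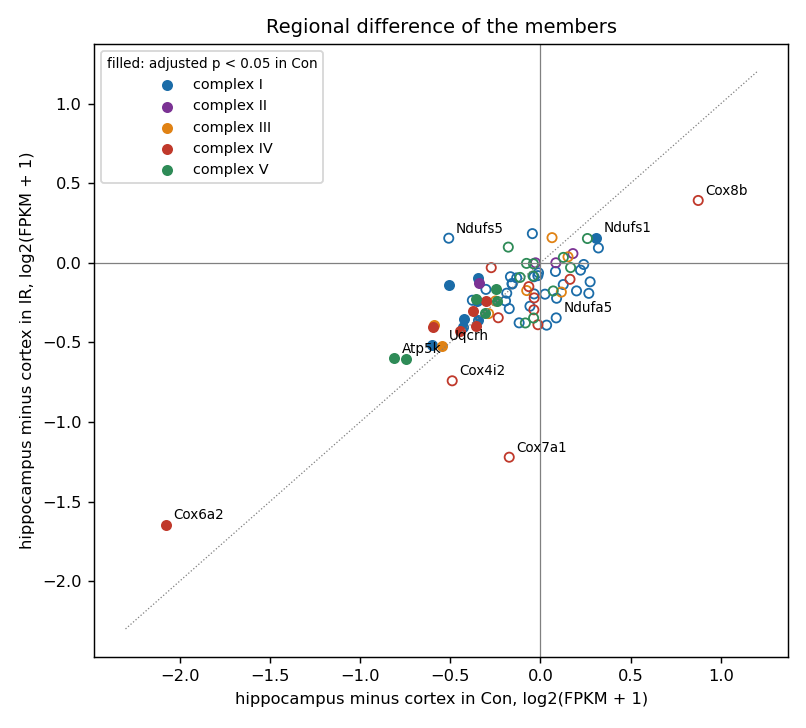
Log2 difference, on log2(FPKM + 1), between hippocampus and cortex for the 82 members tested in both comparisons, in Con (x axis) and in IR (y axis), with 1 point per gene coloured by complex, filled where the adjusted p in Con was under 0.05, and a dotted line where both are equal. Most points lie in the lower left, with *Cox6a2* at -2.08 and -1.65, while *Cox7a1* lies at -0.17 in Con and -1.22 in IR.

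The transcripts of the members are short, with a median length of 655 bases against 2184 bases for the genes tested in the cortex, and a median GC content of 52.5% against 51.1%. After a correction of each library for length and GC content, 15 members (18.1%) were lower and 1 (1.2%) higher in Con (median -0.02). This was beside 17.8% and 18.8% of all genes. In IR, 27 members (32.9%) were lower (median -0.08), beside 22.5%. Leaving out both hippocampus Con 1 and Con 2 left Con 3 as the 1 hippocampus library, which limma then assumed to vary like the cortex libraries. In that fit 19 members were lower and 0 higher in Con at an adjusted p under 0.05 (37 lower and 0 higher at an unadjusted p under 0.05 from limma), with a median of -0.23, beside 12.6% lower and 10.3% higher of all genes at an adjusted p under 0.05. Leaving out hippocampus Con 3 in their place gave 22 lower and 14 higher, with a median of -0.03, beside 17.9% and 21.7% of all genes.

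Irradiation was then compared with sham within the cortex. With limma, 0 of 82 members passed an adjusted p of 0.05, beside 0.725% of all 14065 genes tested. At an unadjusted p under 0.05, 2 members were higher and 1 lower, beside 8.16% and 5.94% of all genes. The median log2 difference of the members was -0.02 and that of all genes 0.00, and the members' median turned to 0.03 without cortex Con 2 and 0.0026 without cortex IR 2. The 95% interval of the difference lay within 1.2-fold in either direction for 67 of the 82 members (6814 of 14065 genes in all) and within 1.5-fold for 79 (13406 genes in all). By complex the medians were -0.03, -0.07, -0.02, 0.03 and -0.03 from I to V. Of the 20 core subunits, 18 had a lower mean in IR, beside 53 of all 82 members, with differences from -0.14 (*Ndufs3*) to 0.06 (*Sdhd*) and a median of -0.07. All IR libraries were below all Con libraries for 7 of them, beside 7 of all 82 members (8.54%) and 9.09% of all genes tested: *Ndufs3*, *Sdhb* (-0.11), *Ndufs1* (-0.09), *Uqcrc2* (-0.09), *Atp5a1* (-0.09), *Uqcrfs1*, the Rieske iron-sulfur protein of complex III (-0.07), and *Sdha* (-0.07). Of the 20, only *Ndufs3* had an unadjusted p under 0.05 with limma, and 0 passed an adjusted one. Without cortex Con 2, 14 of the 20 were lower (median -0.04). Markers of glia also moved with irradiation in the cortex. Of 6 oligodendrocyte markers, 6 had a higher mean in IR and 3 an unadjusted p under 0.05 with limma, and their sums did not overlap (1050.2 to 1302 FPKM in Con and 1306 to 1583 FPKM in IR). Of 6 microglia markers, 6 had a lower mean in IR and 2 an unadjusted p under 0.05, with sums of 85.2 to 95.3 FPKM in Con and 65.2 to 88.7 FPKM in IR. Of 6 astrocyte markers, 2 had a higher and 4 a lower mean in IR, and 0 had an unadjusted p under 0.05. No gene of these lists passed an adjusted p of 0.05, and the part of these cells in the differences of the members was not tested.

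The cortex difference nearest to the threshold was that of *Cox7a1*. It was listed at 4.94, 4.65 and 4.79 FPKM in Con and at 8.56, 6.82 and 6.42 FPKM in IR. Every IR library was above every Con library (log2 difference 0.50, SE 0.10, ratio of means 1.52, adjusted p = 0.0565 from limma). It passed at an adjusted p of 0.0490 when only genes with at least 1 FPKM in every library were tested, and had an adjusted p between 0.0550 and 0.163 in the other alternatives run. *Cox8b*, the muscle form of subunit 8, was listed at 0.718, 0.338 and 0.696 FPKM in Con and 1.74, 1.04 and 0.687 FPKM in IR, which overlapped (log2 difference 0.43, adjusted p = 0.317). *Ndufs3*, a core subunit of the peripheral arm of complex I, was at 98.5, 109 and 101 FPKM in Con and 95.8, 88.4 and 94.2 FPKM in IR (log2 difference -0.14, adjusted p = 0.298), without overlap.

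The sparse isoforms *Cox6a2* and *Cox4i2* did not pass in the cortex. *Cox6a2* had a log2 difference of 0.20 (adjusted p = 0.521) and *Cox4i2*, at 1.41, 3.18 and 3.53 FPKM in Con and 2.98, 2.80 and 2.40 FPKM in IR, overlapped. The 7 mural cell genes, which mark cells of the vessel wall where *Cox4i2* and *Ndufa4l2* are known to be expressed, summed to 71.8 to 80.9 FPKM in cortex Con and 68.5 to 83.3 FPKM in cortex IR. The 5 endothelial genes summed to 69.8 to 84.3 FPKM in cortex Con and 87.7 to 99.9 FPKM in cortex IR, and to 61.5 to 68.4 and 75.7 to 78.4 FPKM in the hippocampus. Their part in the *Cox7a1* difference was not tested. Cortex Con 2 was the highest of the 6 cortex libraries for 51 of the 82 members (62.2%), and for 22.5% of all genes. Without that library, 12 members passed an unadjusted p of 0.05, 11 of them higher in IR, beside 15.1% of all genes, and 0 an adjusted p of 0.05.

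In the hippocampus, 0 of 82 members passed an adjusted p of 0.05 with limma, beside 0.0285% of all 14043 genes tested. At an unadjusted p under 0.05, 4 members were higher and 9 lower, beside 7.06% and 6.89% of all genes. The median log2 difference was -0.06 for the members and -0.01 for all genes, and by complex -0.12, -0.03, -0.05, -0.09 and -0.02 from I to V. The intervals were wider than in the cortex: 19 members lay within 1.2-fold in either direction (4119 of 14043 genes in all) and 66 within 1.5-fold (12657 genes in all). Markers of cell types were read here as well. Of 6 microglia markers, 6 had a lower mean in IR, 4 had an unadjusted p under 0.05, and *Csf1r*, the receptor on which microglia depend, fell by 0.84 on the log2 scale (adjusted p = 0.0126 from limma). The microglia sums did not overlap, at 85.1 to 105 FPKM in Con and 66.1 to 76.3 FPKM in IR. Of 6 astrocyte markers, 6 had a lower mean in IR and 3 an unadjusted p under 0.05, with sums of 683 to 779 FPKM in Con and 649 to 701 FPKM in IR. Of 6 oligodendrocyte markers, 4 had a lower mean and 2 of them an unadjusted p under 0.05, with sums of 1072 to 1308 FPKM in Con and 1001 to 1265 FPKM in IR. Of 3 granule cell markers, 3 had a higher mean in IR and 1, *Prox1* (0.30), an unadjusted p under 0.05. Of 5 endothelial markers, 4 had a higher mean in IR and 1, *Cldn5* (0.45), an unadjusted p under 0.05. Their part in the differences of the members was not tested.

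**Figure D4:**
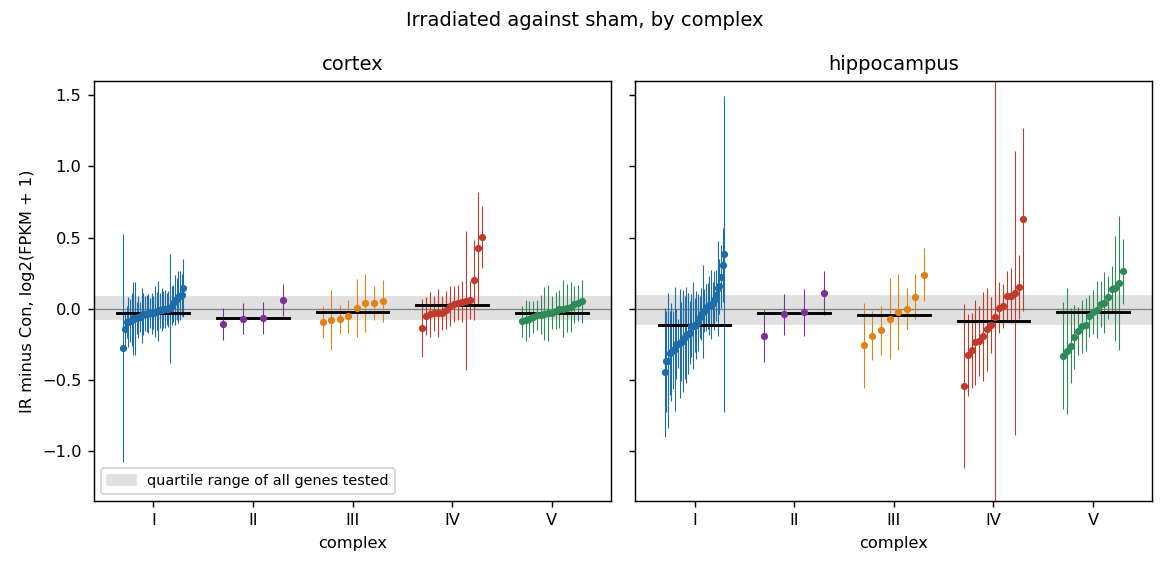
Log2 difference between IR and Con, on log2(FPKM + 1), for the 82 members tested in the cortex (left) and the hippocampus (right), with 1 point per gene by complex, bars for the 95% interval from limma, a black line at the median of each complex and a grey band for the range between the quartiles of all genes tested. The intervals are wider in the hippocampus, where that of *Cox8b* runs past the axis, and *Cox7a1* is the highest point of the cortex at 0.50.

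Of the 9 lower members, 5 belong to complex I, which held 37 of the 82 members tested. *Ndufs1* was at 63.0, 60.6 and 53.3 FPKM in hippocampus Con and 50.2, 48.8 and 49.3 FPKM in IR, without overlap (log2 difference -0.25, SE 0.07, adjusted p = 0.278 from limma, the lowest of the members). *Ndufv1* was at 106, 97.2 and 81.8 FPKM against 72.0, 83.0 and 83.5 FPKM (-0.25, adjusted p = 0.354). *Ndufa5*, *Ndufa9* and *Ndufb9* had log2 differences of -0.37, -0.31 and -0.29. The others were *Cox6a1* (-0.33) and *Cox6c* (-0.29) of complex IV, *Sdha* (-0.19) of complex II and *Uqcrfs1* (-0.19) of complex III. *Sdha* was at 160.2, 159.95 and 137 FPKM against 132, 135 and 132 FPKM, without overlap, with Con 3 nearer to IR than to the other Con libraries. *Cox6a1* was at 688, 664 and 503 FPKM against 454, 519.7 and 494 FPKM, where Con 3 lay within the IR range.

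The 4 higher members were *Ndufa11* (0.31), *Atp5g1* (0.26), *Uqcr10* (0.24) and *Ndufa10* (0.23), with adjusted p of at most 0.354. *Uqcr10* was at 172, 152 and 169 FPKM in Con and 179.9, 206 and 196 FPKM in IR, without overlap. *Atp5g1*, 1 of the 3 subunit c genes, was at 103, 111 and 133 FPKM against 145, 141 and 130.4 FPKM, so that Con 3 overlapped with IR. *Cox7a1*, the gene nearest to the threshold in the cortex, was at 5.56, 3.36 and 3.73 FPKM in hippocampus Con and 1.55, 2.39 and 4.07 FPKM in IR, which overlapped (log2 difference -0.54, adjusted p = 0.377).

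Hippocampus Con 1 and Con 2 differed from the other 4 hippocampus libraries for many members. Both were above all of the other 4 for 34 of 82 members (41.5%, against 20.2% of all genes tested) and below them for 10 (12.2%, against 15.9%). *Ndufs6*, a zinc-binding subunit of complex I, was at 151 and 144 FPKM in Con 1 and Con 2, and at 84.9 FPKM in Con 3 and 89.8, 90.6 and 89.2 FPKM in IR. *Ndufa1*, an X-linked subunit of the membrane arm, was at 152 and 140.3 FPKM, then at 83.3 FPKM in Con 3 and 89.0, 101 and 92.3 FPKM in IR. *Ndufs5* went the other way, at 17.4 and 19.2 FPKM against 58.7 FPKM in Con 3 and 39.1, 34.5 and 33.8 FPKM in IR. In these 3 members, chosen after their values were seen, Con 3 lay on the side of the IR libraries. *Usmg5*, a small ATP synthase subunit whose name the rule does not take, was at 1108 and 1064 FPKM in Con 1 and Con 2, against 561 FPKM in Con 3 and 553 to 707 FPKM in IR. Con 1 was the highest of the 6 for 46 members (56.1%, against 26.1% of all genes) and IR 1 the lowest for 35 (24.8% of all genes).

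**Figure D5:**
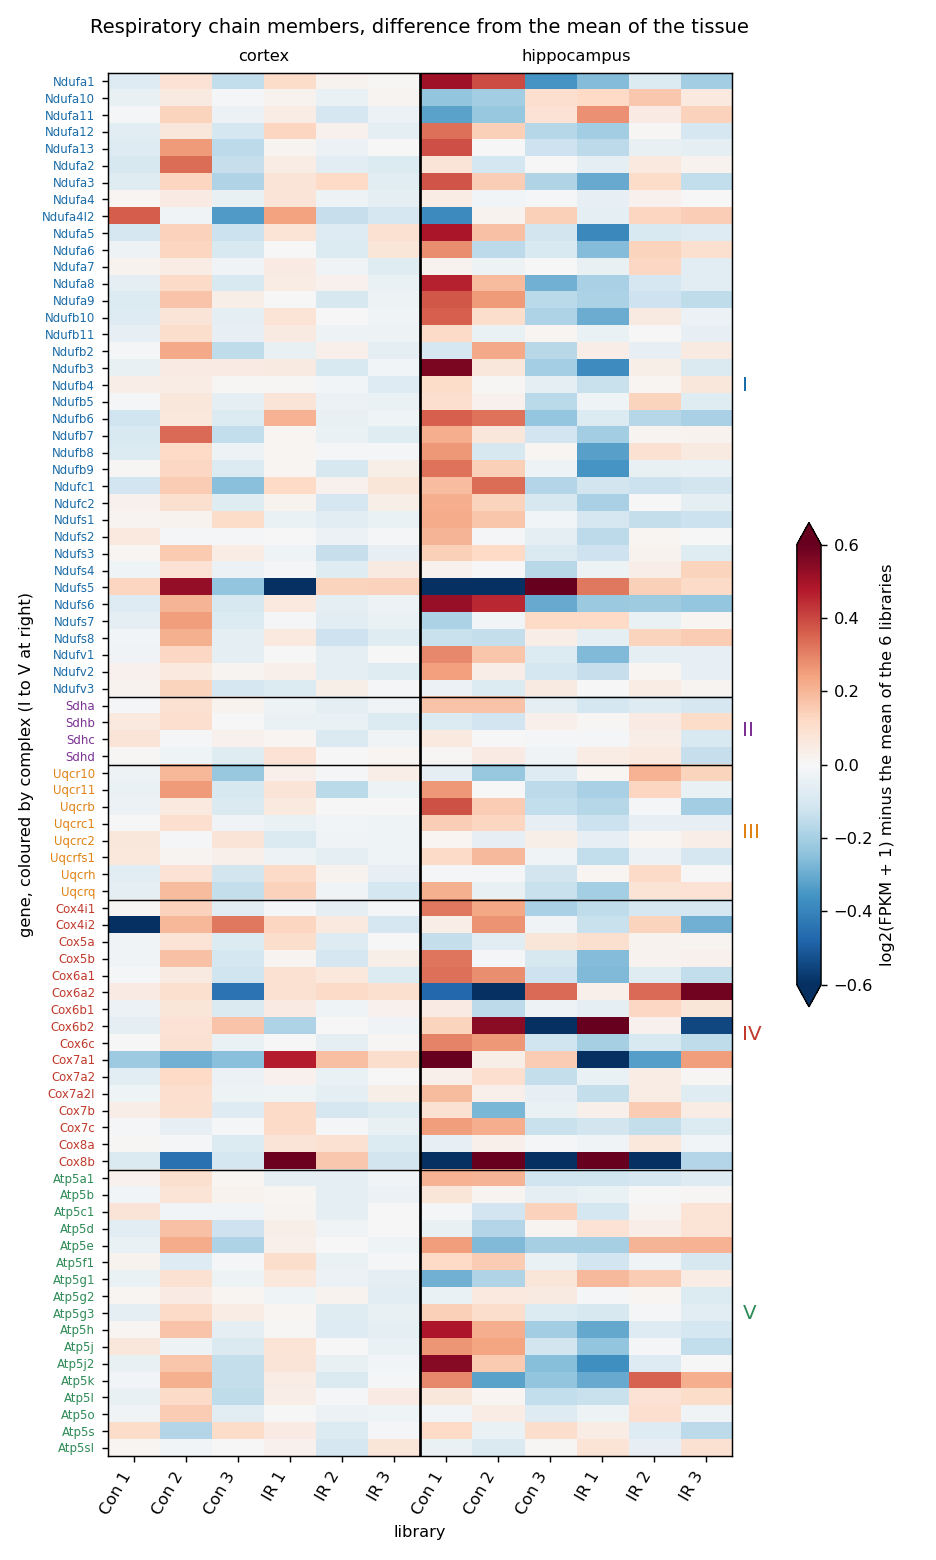
Difference of each library from the mean of the 6 libraries of its region, on log2(FPKM + 1), for the 82 members tested (rows, coloured and divided by complex) in 12 libraries (columns), with red for higher and blue for lower. Cortex Con 2 and hippocampus Con 1 are mostly red, and hippocampus Con 1 and Con 2 share red blocks in *Ndufa1* and *Ndufs6* and blue in *Ndufs5*.

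The counts in the hippocampus rested on these libraries. Without Con 3, 42 members passed an unadjusted p of 0.05 (10 higher, 32 lower) and 21 an adjusted p of 0.05 (5 higher, 16 lower), beside 26% and 6.33% of all genes tested. Without Con 1 or without Con 2, 3 and 1 members passed an unadjusted p of 0.05, beside 9.13% and 9.3% of all genes. Without both, which left Con 3 alone and assumed to vary like the IR libraries, 2 did, beside 6.9% of all genes, with a median of 0.03. The counts of members at an unadjusted p under 0.05 without IR 1, IR 2 or IR 3 were 4, 6 and 5, beside 8.35%, 9.79% and 9.55% of all genes. Over 2488 other genes with transcripts of up to 1000 bases, the median difference from the hippocampus mean was 0.04 in Con 1, 0.01 in Con 2, -0.02 in Con 3 and -0.04 in IR 1, and for the members it was 0.14, 0.03, -0.08 and -0.11. The part of transcript length in the split was not tested further.

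*Cox8b* varied with another set of libraries in the hippocampus. It was listed at 0.518, 8.36 and 0.691 FPKM in Con and at 5.05, 0.406 and 1.51 FPKM in IR, so that Con 2 and IR 1 were high and the groups overlapped (log2 difference -0.06, adjusted p = 0.984). The choroid plexus genes *Ttr*, *Folr1*, *Kl*, *Clic6* and *Otx2* were all listed, and summed to 22.8, 1055 and 65.8 FPKM in Con and 1641, 42.6 and 23.9 FPKM in IR. The same 2 libraries were thus the highest for both. In the cortex the sum was 3.46 to 30.1 FPKM in Con and 17.0, 437 and 15.8 FPKM in IR, where the library with 437 FPKM was not the one with the highest *Cox8b*. The part of choroid plexus tissue in *Cox8b* was not tested.

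Whether the difference between IR and Con differed between the 2 regions was tested as an interaction over all 12 libraries. With limma, 0 of 82 members passed an adjusted p of 0.05 and 8 (9.76%) an unadjusted one, beside 0.083% and 10.4% of all 14459 genes tested. *Cox7a1* led, with an interaction of -1.05 on the log2 scale (SE 0.30, adjusted p = 0.291 from limma), from 0.50 in the cortex and -0.54 in the hippocampus. *Ndufa5* (-0.43), *Ndufc1* (-0.38), *Cox6a1* (-0.37) and *Atp5j* (-0.29) were more negative in the hippocampus, and *Ndufa11* (0.37), *Atp5g1* (0.28) and *Sdhb* (0.22) more positive. Without hippocampus Con 3, 36 members passed an unadjusted p of 0.05 and 15 an adjusted one, beside 20% and 3.38% of all genes. Without hippocampus Con 2, 3 passed an unadjusted p of 0.05, beside 8.56% of all genes.

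Other genes tied to the chain were read by list. Of 45 assembly factors tested, 0 passed an adjusted p of 0.05 for irradiation in either region, and 4 (8.89%) in the cortex and 6 (13.3%) in the hippocampus passed an unadjusted one with limma, beside 14.1% and 13.9% of all genes tested. In the regional comparison in Con, 3 assembly factors were higher and 4 lower in the hippocampus, and these were *Coa5* (0.38), *Sdhaf3* (0.27), *Tmem70* (0.25), *Uqcc2* (-0.61), *Coa3* (-0.41), *Surf1* (-0.35) and *Lyrm7* (-0.26). Of the 13 enzymes of the TCA cycle, which feeds electrons to complexes I and II, 0 were higher and 1, *Idh3g* (-0.36), was lower, and of 16 glycolysis genes 2 were higher (*Pfkl* 0.97, *Hk1* 0.34) and 1 lower (*Ldhb* -0.58). These lists stand beside 19% higher and 17.3% lower in all genes tested, and 0 of their genes passed an adjusted p of 0.05 for irradiation in either region with limma (1 TCA cycle gene in each region, and 1 and 2 glycolysis genes in the cortex and the hippocampus, at an unadjusted p under 0.05, where 14.1% and 13.9% of all genes passed). Of 6 subunits and inhibitors of the chain that the rule leaves out, *Atpif1*, the inhibitor of the ATP synthase, was lower in hippocampus Con (-0.58, adjusted p = 0.00351).

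Regulators of the genes of the chain were read as a further list. Of 12 tested, *Yy1* (0.49), *Gabpa* (0.37), *Tfb2m* (0.29) and *Tfam* (0.27), the last a packaging and transcription factor of mitochondrial DNA, were higher in hippocampus Con at adjusted p of 0.00163, 0.0124, 0.0483 and 0.0423, and 0 were lower at an adjusted p under 0.05 (0 at an unadjusted p under 0.05). Among all genes tested, 19% were higher and 17.3% lower. *Tfam* was at 9.49, 10.2 and 8.30 FPKM in hippocampus Con 1 to 3 and 7.57, 7.49 and 7.68 FPKM in cortex Con. Between the IR libraries, 3 of the 12 were higher and 1 lower in the hippocampus, beside 23.7% and 23% of all genes, with a median of -0.03. For irradiation in the cortex, 11 of the 12 had a positive difference (median 0.10), as had 7102 of all 14065 genes, and 3 were higher at an unadjusted p of 0.05 with limma, beside 8.16% of all genes, but 0 at an adjusted one. *Esrra*, a nuclear receptor that acts with PGC-1 coactivators, was at 25.6, 25.4 and 25.03 FPKM in Con and 29.2, 29.7 and 29.2 FPKM in IR, without overlap (log2 difference 0.20, adjusted p = 0.111). In the hippocampus 3 of the 12 were positive, as were 6636 of all 14043 genes, and *Tfam* had a log2 difference of -0.24 (adjusted p = 0.321).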

How the data were processed

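RNA of 12 mouse brain libraries was analysed from FPKM, which the authors made before deposition. The submitters' processing notes name TopHat and the genome build mm10, and the paper adds Cufflinks and a geometric normalization. Versions and the annotation are not given in the sources used here. The labels name Trizol and total RNA, and the paper an RNeasy kit and poly(A) selection. No counts were used, and the depth of the libraries in reads stays unknown. Reads shared with processed pseudogenes, overlapping genes or antisense genes may have been split in ways that could not be checked.

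Libraries were grouped by their labels alone. Genes that reached 0.5 FPKM in 3 or more of the 6 libraries fitted were tested on log2(FPKM + 1), so differences of low genes are understated, with limma 3.58.1 in R 4.3.3 (intensity trend, robust prior) and Benjamini-Hochberg adjustment over all genes tested. The steps were tested on simulated data. No scaling was added to the deposited FPKM. Lengths and GC content came from GENCODE M21, promoters from RefSeq, and figures from matplotlib 3.10.9 in Python 3.11.15. Members and lists were chosen with earlier results of these data known, so no set test was run.

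Genes named are, per complex and comparison, those with the highest and lowest difference at an unadjusted p under 0.05, the 10 largest regional differences in Con among members with an adjusted p under 0.05, core subunits, isoform families and members that did not pass the filter. Other names come from the fixed lists or were chosen after their values were seen. Alternatives were other filters, a pseudocount of 0.1, ratios of group means, quantile normalization, no trend or robust prior, a length and GC correction (loess, span 0.3), the library number as a block, and leaving out libraries. The alternative without both hippocampus Con 1 and 2, and those for the regional comparison in IR, were chosen after seeing the data.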

Additional observations from a re-analysis of the deposited data

How the results depend on the processing

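For irradiation in the cortex, quantile normalization gave 5 members at an unadjusted p under 0.05 in place of 3, and leaving out a library gave 1 to 12. In the hippocampus, no filter gave 8 in place of 13, no trend and no robust prior 8, leaving out a library 1 to 42 (0 to 21 at an adjusted p under 0.05), and leaving out both hippocampus Con 1 and 2 gave 2, with a median log2 difference of 0.026. Here and in the other fits without both, Con 3 alone stood for hippocampus Con and was assumed to vary like the other groups. For the interaction, quantile normalization gave 13 in place of 8, leaving out a library 3 to 36, and leaving out both gave 3, with a median of 0.048.

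For hippocampus against cortex in Con, the 1 higher member became 2 with quantile normalization, 0 without both hippocampus Con 1 and 2 (median -0.232), 4 with the IR libraries in their place (43 lower) and 0 to 14 when leaving out a library. *Ndufa5* was then at -0.346 in IR (adjusted p = 0.011). The length and GC correction gave 15 lower members (18.1%) in Con in place of 22 (26.5%), with a median of -0.016. All genes were lower in 17.8% with the correction and in 17.3% without it. In IR, the length and GC correction gave 27 lower members in place of 43, and a median of -0.083. The cause of these shifts was not tested. The direction of *Cox6a2*, *Uqcrh* and *Atp5k* between regions and their side of the threshold held under every alternative run.

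Libraries with the same number were not taken as pairs, since the labels tie no number to an animal: the correlations of their deviations were 0.11, -0.11 and -0.04 in the cortex and -0.39, -0.15 and -0.09 in the hippocampus between Con and IR, and 0.06, -0.04 and 0.20 in Con and -0.08, 0.01 and 0.14 in IR between the regions. With a replicate block, 5 members in the hippocampus passed an unadjusted p of 0.05, and 8 with the block and the length and GC correction. That block and correction left 14 lower in Con and 25 in IR, with a median of -0.083 in IR. Read depth is unknown, which limits statements on members at or below about 1 FPKM, such as *Cox8b* and *Cox7b2*.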
